A study of Homo sapiens with 6 samples.

Results

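Human embryonic stem cells on day 0 were compared with the pre-neural crest cells obtained from them on day 3, over the genes expressed in either group. A gene entered the comparison where its group FPKM (a level scaled to transcript length and library size) was at least 1 on day 0, on day 3 or on both, which held for 14152 of the 23284 genes in the table. Both groups were made from WA01 (H1), an established human line of wildtype genotype, so all results rest on 1 line. The undifferentiated cells are labelled ES, day 0, and the differentiating cells preNC, day 3, with 2 libraries each. The growth settings are listed alike for both: Matrigel, a plating density of 20000 cells per cm2, 2% B27, 0.5% bovine serum albumin, 3 µM of the GSK3 inhibitor CHIR99021, and 10 µM of the ROCK inhibitor Y-27632 for the first 2 days. They do not show whether the day 0 cells had received either compound. A further 2 libraries of neural crest cells on day 5 serve here only to place day 3 levels.

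Embryonic stem cells are an epithelium held in the pluripotent state by POU5F1, SOX2 and NANOG together with Nodal and FGF signals. Inhibition of GSK3 stabilises beta-catenin, which enters the nucleus and acts with TCF and LEF proteins on target genes, several of which encode inhibitors of the same pathway. In the embryo WNT signals, with FGF and BMP, set up the neural plate border, the strip between neural plate and epidermis from which neural crest arises. Neural crest cells later leave the epithelium by an epithelial to mesenchymal transition.

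Each gene had a single FPKM value per group, which leaves the spread between replicates unknown. Nothing says whether the 2 libraries of a group came from separate cultures, so the deposited tests may measure technical spread alone. The depth per library is unknown. Calls rest on the authors' deposited table, at q below 0.05, and "rose" and "fell" are used for called genes alone. Among all 16231 tested genes, 20.6% were called, 8.96% higher and 11.6% lower on day 3. Among the 14020 genes of this comparison that were tested, 1297 rose (9.25%) and 1617 fell (11.5%), which makes 2914 calls (20.8%). Log2 ratios are of day 3 over day 0 FPKM, given ± a standard error obtained as the ratio divided by its test statistic from the authors' deposited table. That error need not follow the calls: MIR1244-3 had a log2 ratio of -0.476 ± 0.0019 and was not called (q 0.287 in the authors' deposited table). The log2 change of FPKM plus 1 is used for lists and ranks, and its median over the 14152 genes was 0.04, with quartiles of -0.32 and 0.35. In such bulk RNA, fewer cells expressing a gene and less RNA per cell cannot be told apart.

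**Figure D1:**
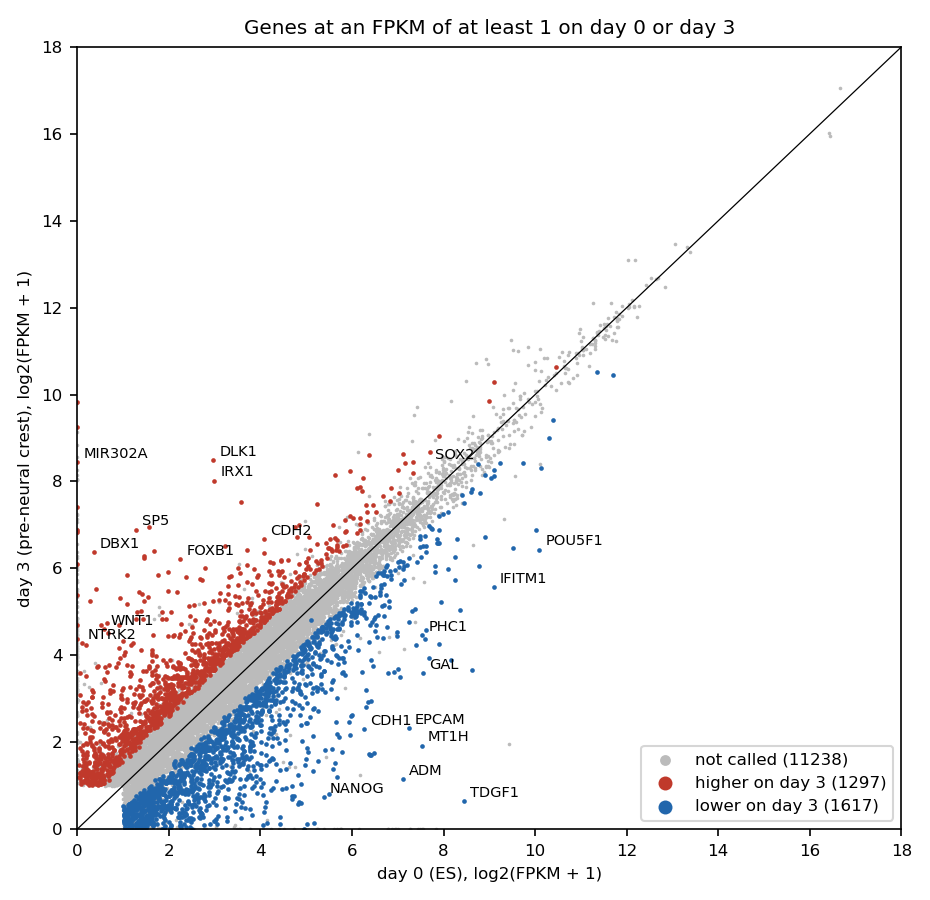
Each point is 1 gene at an FPKM of at least 1 on day 0 or day 3, placed by log2 of FPKM plus 1 on day 0 (x axis) and day 3 (y axis). Red points (1297) were called higher on day 3, blue points (1617) lower, grey points were not called, and the line marks equal values.

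The labels were set against marker genes. All 8 embryonic stem cell markers examined stood at an FPKM of at least 1 on day 0, and their summed FPKM was 2589 on day 0 and 1105 on day 3. Of these 8, 6 fell, while SOX2 (203 and 341 on day 0 and day 3) and LIN28A (396 and 555) were not called. All 8 pre-neural crest and border markers rose, from a summed FPKM of 44.6 to 339, most of it from IRX1. PAX7 and ZIC1 rose but remained below an FPKM of 1 on day 3, at 0.715 and 0.483. Of 6 neural crest markers 3 rose, namely SOX10, SNAI2 and NGFR, and FOXD3 fell. TFAP2B reached only 0.182 on day 3 and was not tested. Markers of other tissues were mostly below 1, and their part in the results was not tested. Of 20 mesendoderm genes 4 were at an FPKM of at least 1 on each day, for a summed FPKM of 31.9 and then 23.3. Without KDR (from 22.2 to 3.14) the sum was 9.70 and then 20.2. That higher sum rests on CXCR4 (from 1.94 to 12.5), which is also a chemokine receptor of migrating neural crest. CXCR4, FGF17 and T (brachyury, from 0.134 to 0.777) rose, KDR and CER1 fell, EOMES was at 0.0285 on day 3, and MSGN1 and FOXA2 were listed at 0. Of 20 endothelial and blood genes 5 reached 1 on day 3, TEK highest (12.2 and 21.5), the sum going from 41.1 to 31.2, or from 18.9 to 28.1 without KDR. TEK, ESAM and VWF rose, KDR fell, and PTPRC was listed at 0. Of 14 hepatic and gut genes none reached 1 on day 3, as against 2 on day 0, AFP (2.15 and 0.0576) and VIL1 (4.51 and 0.837), and the sum went from 9.53 to 2.74. Of 16 muscle genes 3 reached 1 on each day, summing to 158 and 145, nearly all of it TNNT1 (139 and 135, not called). Of 16 trophoblast and amnion genes 4 reached 1 on each day, summing to 19.7 and 12.0, and ELF5 was listed at 0 on both.

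Calls were less frequent among abundant genes. Of tested genes whose higher group lay at an FPKM from 1 to below 2, 11% rose and 17.2% fell, while at 100 or more 4.95% rose and 9.26% fell. Of the genes that rose, 675 at least doubled in FPKM plus 1, and 1007 of those that fell did so at least 2-fold. A gene that reached an FPKM of 1 only in the group where it was high had to differ between the days: 902 genes did so on day 0 alone and 724 on day 3 alone. Where a list count below is given without this split, it can include such genes, whose direction the limit set. At the edge of the rule, 163 genes had a maximum from 1 to below 1.1, of which 41 were called, and 204 genes had one from 0.9 to below 1, of which 48 were called.

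**Figure D2:**
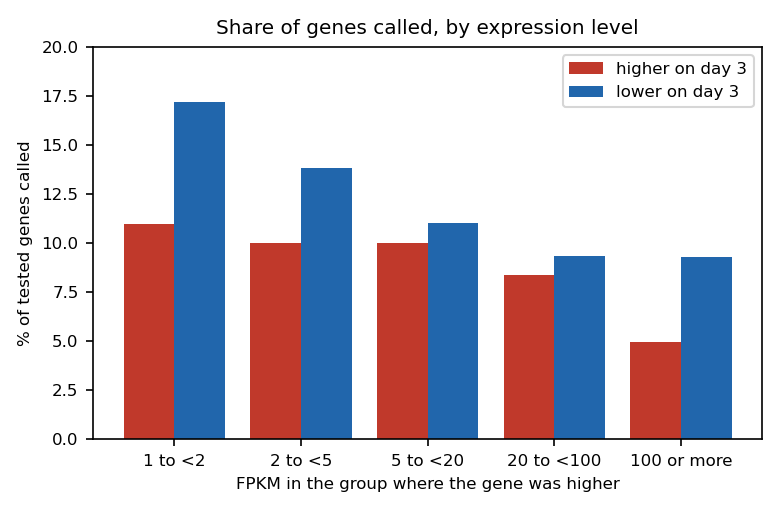
Bars give the percentage of tested genes called higher (red) or lower (blue) on day 3, by the FPKM (x axis) of the group where the gene was higher. The share called lower falls from 17.2% in the class at 1 to below 2 to 9.26% in the class at 100 or more, and the share called higher from 11% to 4.95%.

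Genes at ranks 23 to 30 by size of rise encoded receptors, transcription factors and adhesion molecules, several of them known from the early nervous system. NTRK2, the receptor of brain-derived neurotrophic factor, rose from 0.0714 to 18.5 (log2 ratio 8.02 ± 0.71) and stood at 0.404 on day 5. ZEB2, a repressor of epithelial genes, rose from 0.434 to 25.0, LMO1, a LIM-only cofactor, from 1.54 to 42.8, and LIX1 from 1.12 to 35.1. FLRT3, a cell surface protein involved in adhesion and FGF signalling, rose from 0.578 to 25.9, and GREB1L from 2.38 to 56.5. The homeobox gene BARHL1, expressed in the dorsal neural tube, rose from 0.147 to 17.8 (log2 ratio 6.92 ± 0.49). WNT1, the WNT ligand of the dorsal midbrain and hindbrain, closed the 30 largest rises, from 0.496 to 23.1, and stood at 301 on day 5. NTRK2 was high on day 3 alone among the 3 days, whereas WNT1 was highest on day 5. Of the 30 largest rises, 10 were small nucleolar or microRNA genes listed at 0 on day 0. The ranks above NTRK2 otherwise held DBX1, SP5, DLK1, VGLL3, DMBX1, IRX1, MEIS2, CYP26C1, CNTFR, WLS, PRTG and CNTN2.

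The 13 largest falls were at TDGF1, ADM, MT1H, TDGF1P3, SNAR-C3, MT1G, EPCAM, RAB17, TPTEP1, LOC100131138, FOS, PMAIP1 and NANOG. Next came genes of epithelia, secreted peptides and cytokines. AP1M2, an adaptor subunit for sorting to the basolateral membrane of epithelia, fell from 82.2 to 2.31 (log2 ratio -5.15 ± 0.44). ESRP1, which directs epithelial splicing, fell from 50.1 to 1.28, and P-cadherin (CDH3) from 47.4 to 1.62. The peptide precursor genes NTS (neurotensin) and GAL (galanin) fell from 20.4 to 0.0910 and from 186 to 11.1. RARRES2, which encodes chemerin, fell from 286 to 13.7, and the chemokine gene CCL26 from 27.4 to 0.493. LCK, a Src-family kinase known from T cells, fell from 27.7 to 0.531, and the serotonin receptor gene HTR7 from 24.9 to 0.615. FLT1, a receptor of vascular endothelial growth factor, fell from 25.6 to 0.685 (log2 ratio -5.22 ± 0.63), and the chemokine gene CXCL12 from 24.7 to 0.682. IDO1, the tryptophan-degrading enzyme induced by interferon, fell from 54.1 to 2.45. The homeobox gene NKX1-2 fell from 20.6 to 0.214. All of these except GAL and RARRES2 were below an FPKM of 4 on day 3. TRIML2 (from 28.8 to 0.512) and TRDN (from 16.6 to 0.107) fell as well. TLR8-AS1 (48.3 and 1.86) is an antisense gene and, with the strand of counting not stated, its reads cannot be told from those of its partner.

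Of 28 homeobox and other patterning factors of the neural tube at an FPKM of at least 1, 18 rose and 6 fell, and the median change was 1.26. Of these, 14 reached 1 on day 3 alone and 5 on day 0 alone, which sets their direction; of the 9 at 1 or more on both days, 5 rose and 2 fell, median 0.80. PAX2, a factor of the midbrain-hindbrain boundary, rose from 0.0383 to 11, and EN1, another factor of that boundary, from 0.0341 to 7.55. LMX1B, needed for the isthmic organiser and dorsal neurons, rose from 0.230 to 5.94, and its relative LMX1A from 0.101 to 1.91, reaching 46.8 on day 5. The POU factors POU3F2 and POU4F1 rose from 0.241 to 7.20 and from 0.139 to 5.71. NKX6-1, a ventral neural tube factor, rose from 0.160 to 2.86. The 6 that fell include forebrain factors: HESX1 from 25.4 to 8.45, FEZF1 from 21.2 to 7.88, EMX1 from 2.32 to 0.184 and SIX3 from 2.40 to 0.731. HMX2 and POU3F4 fell also, to 0.155 and 0.315. EMX2 and FEZF2, likewise known from the forebrain, rose from 0.158 to 1.26 and from 0.252 to 1.13. OTX2, expressed in forebrain and midbrain, was at 59.2 and 97.9 on the 2 days and was not called.

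Of 17 neural plate border factors at an FPKM of at least 1, 12 rose and none fell, median 1.23. Since 7 of them reached 1 on day 3 alone and none on day 0 alone, the count is partly set by the limit; of the 10 at 1 or more on both days, 5 rose and none fell, median 0.55. IRX5 and IRX3, neighbours on chromosome 16, rose from 0.870 to 17.0 and from 1.64 to 16.4, and IRX2 from 46.8 to 126. Among 15 SOX genes, 6 rose and 2 fell, and of the 11 at 1 or more on both days 3 rose and 1 fell. SOX1, a marker of neural progenitors, rose from 0.985 to 19.2 and was at 1.46 on day 5, and SOX21 rose from 8.38 to 91.0 and was at 5.57 on day 5. SOX5 rose from 0.289 to 5.09 and SOX11 from 17.8 to 56.9, while SOX3, active in pluripotent and early neural cells, fell from 37.0 to 17.6. Of 12 HOX genes and TALE cofactors, 3 rose and 1 fell. Of these 12, 3 reached 1 on day 3 alone, which sets their direction. Of the 9 at 1 or more on both days, 1 rose and 1 fell, median 0.28. PKNOX2, a TALE homeobox gene, rose from 1.28 to 12.6, and TGIF1, a repressor in Nodal and retinoid signalling, fell from 113 to 60.5. HOXA2, the HOX gene of the hindbrain, was at 0.00830 and 1.97 and not called. Of 19 forkhead genes, 2 rose and 8 fell. The 2 were FOXB1 (from 3.77 to 73.6) and FOXP4 (from 4.29 to 10.3). The falls included FOXI3 (from 9.66 to 2.72), FOXO4 (from 10.5 to 3.16) and FOXN3 (from 19.9 to 8.54). FOXD3 fell from 17.9 to 0.876 and stood at 15.4 on day 5.

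Progenitor and neuronal genes were split. Of 33 radial glia and neural progenitor genes, 18 rose and 3 fell, median 0.84, and of the 25 at 1 or more on both days 11 rose and 3 fell. The lipoprotein receptor LRP2 rose from 0.597 to 21.8, the membrane protein gene TTYH1 from 20.8 to 70.5, the growth factor PTN from 36.4 to 177 and nestin (NES), the intermediate filament of neural progenitors, from 48.5 to 102. The RNA-binding MSI1 rose from 21.0 to 49.1. SOX3, PROM1 (from 17.6 to 9.49) and PTPRZ1 (from 59.0 to 33.3) fell. Of 32 proneural and neuronal genes, 16 rose and 10 fell, and of the 22 at 1 or more on both days 9 rose and 7 fell. Those that rose include MAP2, a dendritic microtubule protein (from 4.18 to 54.7), STMN2, a growth cone protein (from 2.60 to 27.4), and the adhesion molecules NRCAM (from 1.33 to 18.4) and NCAM1 (from 1.14 to 12.6). The synaptic genes SYT1 (from 12.8 to 3.56) and SYP (from 4.54 to 1.76) and the neurofilament gene NEFL (from 13.9 to 4.50) fell. The pan-neuronal TUBB3 was at 202 and 292 and not called, and DCX, of migrating neurons, rose from 0.483 to 1.75.

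Many genes for the reception and inhibition of WNT signals were called. Of 23 Frizzled receptors, coreceptors and R-spondin genes at an FPKM of at least 1, 12 rose and 1 fell, median 1.03. Of the 18 at 1 or more on both days, 8 rose and 1 fell, median 0.48. ROR2, a receptor for WNT5A, rose from 1.63 to 31.2 (log2 ratio 4.26 ± 0.39). Of the Frizzled receptor genes, FZD10 rose from 0.178 to 6.61, FZD1 from 0.976 to 8.19, FZD2 from 14.5 to 56.7, FZD3 from 5.51 to 20.2, FZD8 from 5.43 to 13.9 and FZD9 from 2.49 to 6.15, whereas FZD5 fell from 18.6 to 9.72. FZD7, the most abundant of them on both days, was at 105 and 171 and not called. The R-spondin ligands, which keep Frizzled receptors on the cell surface, rose from 0.247 to 4.62 for RSPO2 and from 0.205 to 3.20 for RSPO1. Their receptor LGR4 rose from 31.9 to 74.8, and ZNRF3, the ubiquitin ligase that they antagonise, from 4.40 to 9.85. The coreceptors LRP5 (10.7 and 6.94) and LRP6 (10.8 and 11.2) were not called. Of 20 WNT inhibitors at an FPKM of at least 1, 9 rose and 2 fell. Of the 11 at 1 or more on both days, 5 rose and none fell, median 0.07. TPBG rose from 17.6 to 69.7 and the secreted FRZB from 4.56 to 20.3. NOTUM, a deacylase that inactivates WNT proteins, rose from 0.160 to 2.42. SFRP5 and DACT2 fell, from 2.23 to 0.707 and from 2.43 to 0.640. SFRP1 and SFRP2, the most abundant secreted inhibitors, were at 243 and 232 and at 211 and 172 and were not called.

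Of 24 beta-catenin target genes and TCF/LEF factors, 12 rose and 4 fell, and of the 16 at 1 or more on both days 7 rose and 3 fell. TNFRSF19, a membrane receptor, rose from 0.889 to 24.9 and cyclin D1 (CCND1) from 32.6 to 105. LEF1 and TCF7, which activate with beta-catenin, rose from 0.914 to 14.4 and from 3.00 to 6.32. TCF7L1, the family member known mainly as a repressor, fell from 84.9 to 39.3, and TCF7L2 was at 23.6 and 19.2 and not called. MYC, a target in other tissues, fell from 39.9 to 8.34. In FPKM, TCF7L1 was the highest of these 4 factors on both days.

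SP5 (chromosome 2, 171571857 to 171574498, hg19) encodes a zinc finger factor known as a direct target of beta-catenin and rose 83.0-fold (log2 ratio 6.38 ± 0.33), the second largest rise outside the small RNA genes by log2 change of FPKM plus 1. Its promoter is printed because it was the only one among the genes compared in which 3 or more TCF/LEF motifs were found. Promoter sequences are from RefSeq (GRCh38.p14) and run from 250 bases before to 50 bases after the annotated start, and 10630 of the 14152 genes were matched to 1 or more of them, 15560 promoters in all. The motifs searched were CTTTGAA and CTTTGAT on both strands, in capitals below.
SP5 (chr2:170715087-170715386, plus strand): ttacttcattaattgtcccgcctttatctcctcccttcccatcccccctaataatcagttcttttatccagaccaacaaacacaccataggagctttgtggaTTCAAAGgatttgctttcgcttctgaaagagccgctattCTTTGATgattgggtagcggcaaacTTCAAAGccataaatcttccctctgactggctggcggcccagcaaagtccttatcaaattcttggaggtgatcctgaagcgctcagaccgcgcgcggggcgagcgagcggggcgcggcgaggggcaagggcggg
Such a motif was found in 5.23% of the 1588 promoters of genes that rose, in 3.69% of the 1870 promoters of genes that fell, in 4.11% of all 15560 promoters of the genes compared and in 6.86% of all 35116 promoters of the table. These shares describe letters in a 300-base window. Among 85 genes of the WNT, metallothionein, pluripotency and hypoxia lists with a promoter, SP5 had 3 matches and 7 others had 1. Of these, DKK1, SP8, DACT1 and TPBG rose, DPPA2 (from 5.62 to 0.269) and PIM2 (from 73.9 to 11.3) fell, and MYCN was not called (65.5 and 53.5).

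Planar cell polarity genes, which orient cells within a sheet, were divided. Of 16, 6 rose and 2 fell. FJX1, a Golgi kinase-related protein, rose from 10.3 to 63.0, the cadherin-like CELSR1 from 4.44 to 19.1, FAT1 from 11.6 to 28.5 and VANGL2 from 27 to 53.9. PRICKLE1 fell from 9.40 to 1.68 and VANGL1 from 3.70 to 1.52.

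Of 16 Hedgehog signalling genes, 9 rose and none fell, median 0.80, and of the 11 at 1 or more on both days 5 rose. The rises covered receptors, effectors and feedback genes of the pathway. The coreceptor BOC rose from 1.72 to 27.3 (log2 ratio 3.99 ± 0.47) and GAS1 from 3.25 to 6.88. GLI3, the transcription factor that represses targets without ligand, rose from 4.95 to 27, and SUFU, an inhibitor of GLI factors, from 4.68 to 13.9. The receptor and target gene PTCH1 rose from 6.42 to 13.2. GLI1, the target gene most often used as a readout of pathway activity, was at 7.22 and 5.23 and not called, as was GLI2 (10.1 and 13.6).

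**Figure D3:**
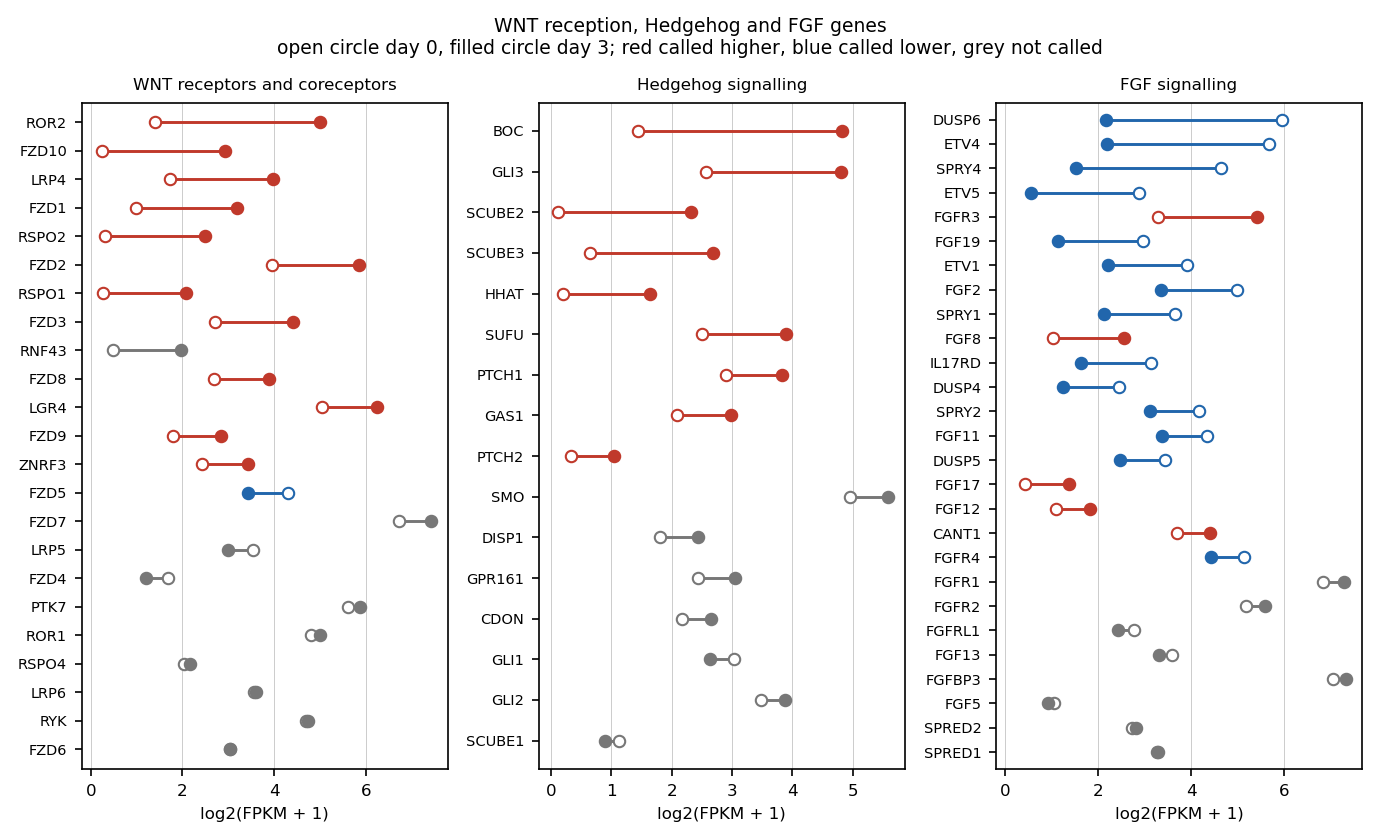
For each gene an open circle marks day 0 and a filled circle day 3 on a log2(FPKM + 1) axis, red where called higher, blue where called lower, grey where not called, ordered by the size of the change. Most called WNT receptor genes and all 9 called Hedgehog genes rose, while 14 of the 19 called FGF genes fell.

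Feedback genes of FGF signalling moved the other way in RNA. Of 27 FGF ligands, receptors and feedback genes, 5 rose and 14 fell, median -0.70. DUSP6, the phosphatase that ERK signalling induces against itself, fell from 61.2 to 3.52 (log2 ratio -4.12 ± 0.45). The ETS factors ETV4 and ETV5, targets of FGF signalling, fell from 50.3 to 3.56 and from 6.39 to 0.480, and the antagonists SPRY4, SPRY1 and SPRY2 from 23.9 to 1.87, from 11.6 to 3.35 and from 16.8 to 7.70. The ligand genes FGF2 and FGF19 fell from 30.6 to 9.13 and from 6.82 to 1.18, while FGF8 and FGF17, ligands of the midbrain-hindbrain boundary, rose from 1.04 to 4.87 and from 0.348 to 1.59. FGFR3 rose from 8.74 to 41.3 and FGFR4 fell from 34.0 to 20.5. FGFR1 (112 and 154), the most abundant receptor of the family on both days, was not called.

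Immediate early genes are induced by ERK and other kinases within minutes. Of 23, 10 fell, 3 rose and the others were not called. EGR1 fell from 63.0 to 5.12 and was at 25.7 on day 5, and FOS was at 6.17 on day 5. IER3 fell from 47.2 to 9.73, IER2 from 93.5 to 29.5 and ARC from 13.9 to 5.12. The rises were IER5L (from 1.02 to 15.2), BTG2 (from 7.05 to 22.1) and ZFP36L1 (from 68.4 to 111). JUN (14.2 and 11.9) was not called.

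Of 29 Nodal and activin genes, 7 rose and 9 fell, median -0.08. Of these, 5 reached 1 on day 0 alone and 3 on day 3 alone, which sets their direction. Of the 21 at 1 or more on both days, 4 rose and 5 fell, median 0.13. Follistatin (FST), which binds activins, rose from 11 to 183 (log2 ratio 4.06 ± 0.44). The receptor gene TGFBR1 rose from 12.1 to 36.5 and the effector SMAD3 from 2.52 to 8.69. FOXH1, the DNA-binding partner of SMAD proteins in Nodal signalling, fell from 60.2 to 17.4, and the feedback regulator SKIL from 20.3 to 2.98. The ligand NODAL was at 1.97 and 0.335 and fell. SMAD2 (7.14 and 7.88) and SMAD4 (10.7 and 13.5) were not called.

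Of 26 BMP signalling genes, 12 rose and 4 fell, and of the 20 at 1 or more on both days 6 rose and 4 fell. Both extracellular antagonists and effectors were among the rises. Besides FST, the antagonist genes chordin (CHRD), gremlin (GREM1) and noggin (NOG) rose from 0.267 to 3.79, from 0.294 to 2.51 and from 0.167 to 1.47. The ligand BMP5 rose from 0.0879 to 6.57, and BMP7 from 3.09 to 7.11, while BMP4 (2.90 and 1.69) and BMP2 (2.16 and 3.27) were not called and stood at 27.5 and 41.4 on day 5. SMAD6, an inhibitory SMAD, rose from 2.07 to 6.70. The ID genes, targets of BMP signalling, differed from each other. ID1 fell from 119 to 11.3 and stood at 174 on day 5, ID4 fell from 6.45 to 2.56, ID2 rose from 67.6 to 231, and ID3 was at 179.5 and 159.5 and not called.

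Of 26 Notch genes, 9 rose and 1 fell. The ligand genes DLL1 and JAG1 rose from 1.96 to 12.1 and from 8.96 to 35.7, and the receptor NOTCH3 from 27.9 to 56.0. HES3, an effector of early neural tube progenitors, rose from 71.3 to 235 and was at 1.95 on day 5. HEY2 fell from 3.99 to 0.313. HES1 (26.5 and 30.5) and HES5 (0.272 and 1.02) were not called.

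Retinoid genes moved in both directions, with 7 of 19 called higher and 5 lower. RARB, a retinoic acid receptor, rose from 0.148 to 10.5, and CYP26A1, which like CYP26C1 degrades retinoic acid, from 20.8 to 59.9, to 3.65 on day 5. DHRS3, which reduces retinaldehyde to retinol, fell from 18.4 to 2.04, ALDH1A3, which makes retinoic acid, from 1.67 to 0.399, and RDH11 from 64.9 to 31.4. STRA6, the retinol transporter, rose from 3.48 to 11.8, and CRABP2, which carries retinoic acid to the nucleus, from 160.2 to 348.

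Of 22 Hippo genes, 7 rose and 4 fell. VGLL3, which binds TEAD factors, stood at 1.03 on day 5 after 122 on day 3. TEAD4 fell from 48.3 to 19.6 while TEAD1 and TEAD2 rose from 11.2 to 23.2 and from 79.3 to 134. YAP1 fell from 35.6 to 21.7, and the YAP target genes CYR61 and CTGF fell from 92.0 to 20.3 and from 66.3 to 30.1. ANKRD1, another such target, rose from 0.285 to 2.66.

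Growth factor receptors and imprinted genes changed as follows. Of 29 neurotrophic and growth factor genes, 12 rose and 7 fell. CNTFR, the ciliary neurotrophic factor receptor, stood at 56.9 on day 3 and 74.9 on day 5. CXCR4, a chemokine receptor of migrating neural crest, rose from 1.94 to 12.5, whereas its ligand CXCL12 fell. The receptor kinases ERBB2 and ERBB3 fell from 109 to 24.1 and from 12.8 to 2.86, while the ERBB ligand NRG1 rose from 1.60 to 9.83. KDR and MET fell from 22.2 to 3.14 and from 2.88 to 0.449, and RET rose from 2.83 to 8.79. Of 30 genes of the insulin-like growth factor axis and imprinted genes, 10 rose and 6 fell. Of the 25 at 1 or more on both days, 7 rose and 6 fell. DLK1 and MEG3, of the same imprinted locus, both rose, MEG3 from 0.113 to 2.32. IGFBP5 rose from 1.65 to 41.3, IGFBP2 fell from 1120.3 to 315 and PEG10 rose from 30.7 to 69.9. CDKN1C, an imprinted inhibitor of cyclin-dependent kinases, rose from 8.77 to 31.9, and PLAGL1 from 0.605 to 12.8.

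Contact-dependent and diffusible guidance molecules, used by both axons and migrating neural crest, were called in both directions. All 8 ephrin ligand genes were at an FPKM of at least 1, and 4 rose and none fell. EFNB1 rose from 2.96 to 59.4 (log2 ratio 4.33 ± 0.36), EFNA5 from 3.27 to 20.9, EFNB2 from 6.08 to 21.1 and EFNA2 from 4.65 to 16.4. Of 11 EPH receptors 5 rose and 2 fell. EPHA4 rose from 4.66 to 23.9 and EPHB3 from 0.576 to 5.41, and EPHA8 fell from 3.17 to 0.860. EPHA1, at 42.4 and 2.15, was not called (q 0.0796 in the authors' deposited table). Of 39 guidance genes 13 rose and 9 fell, and of the 28 at 1 or more on both days 6 rose and 6 fell. The receptor NRP2 rose from 12.0 to 66.2, and the repulsive guidance molecules RGMB and RGMA from 5.96 to 63.6 and from 26.0 to 123. SEMA5B rose from 10.4 to 34.6, and the netrin receptors UNC5A and UNC5B fell from 3.31 to 0.399 and from 13 to 4.15.

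Epithelial genes had the lowest median of the lists with at least 8 genes. Of 45 tight junction and epithelial genes at an FPKM of at least 1, 32 fell and none rose, median -1.49. Among all tested compared genes 11.5% were called lower. Of the 38 at 1 or more on both days, 26 fell, median -1.46. CLDN4, a claudin of tight junctions, fell from 34.7 to 1.54 (log2 ratio -4.49 ± 0.38), CLDN3 from 37.1 to 8.49 and CLDN6, the most abundant claudin on both days, from 545 to 309. The polarity gene CRB3 fell from 24.8 to 0.981 and RAB25, of apical recycling, from 38.9 to 9.14. The membrane proteases PRSS8 and ST14 fell from 51.9 to 3.33 and from 13.1 to 1.26, and their inhibitors SPINT1 and SPINT2 from 50.2 to 14.8 and from 180.1 to 75.6. The desmosome genes DSP, PKP3 and PKP2 fell from 15.1 to 1.61, from 18.3 to 3.28 and from 15.1 to 3.03. TJP1, a scaffold of tight junctions, was at 27.8 and 27.7 and not called. CLDN7, at 71.8 and 1.36, was not called (q 0.0634 in the authors' deposited table).

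**Figure D4:**
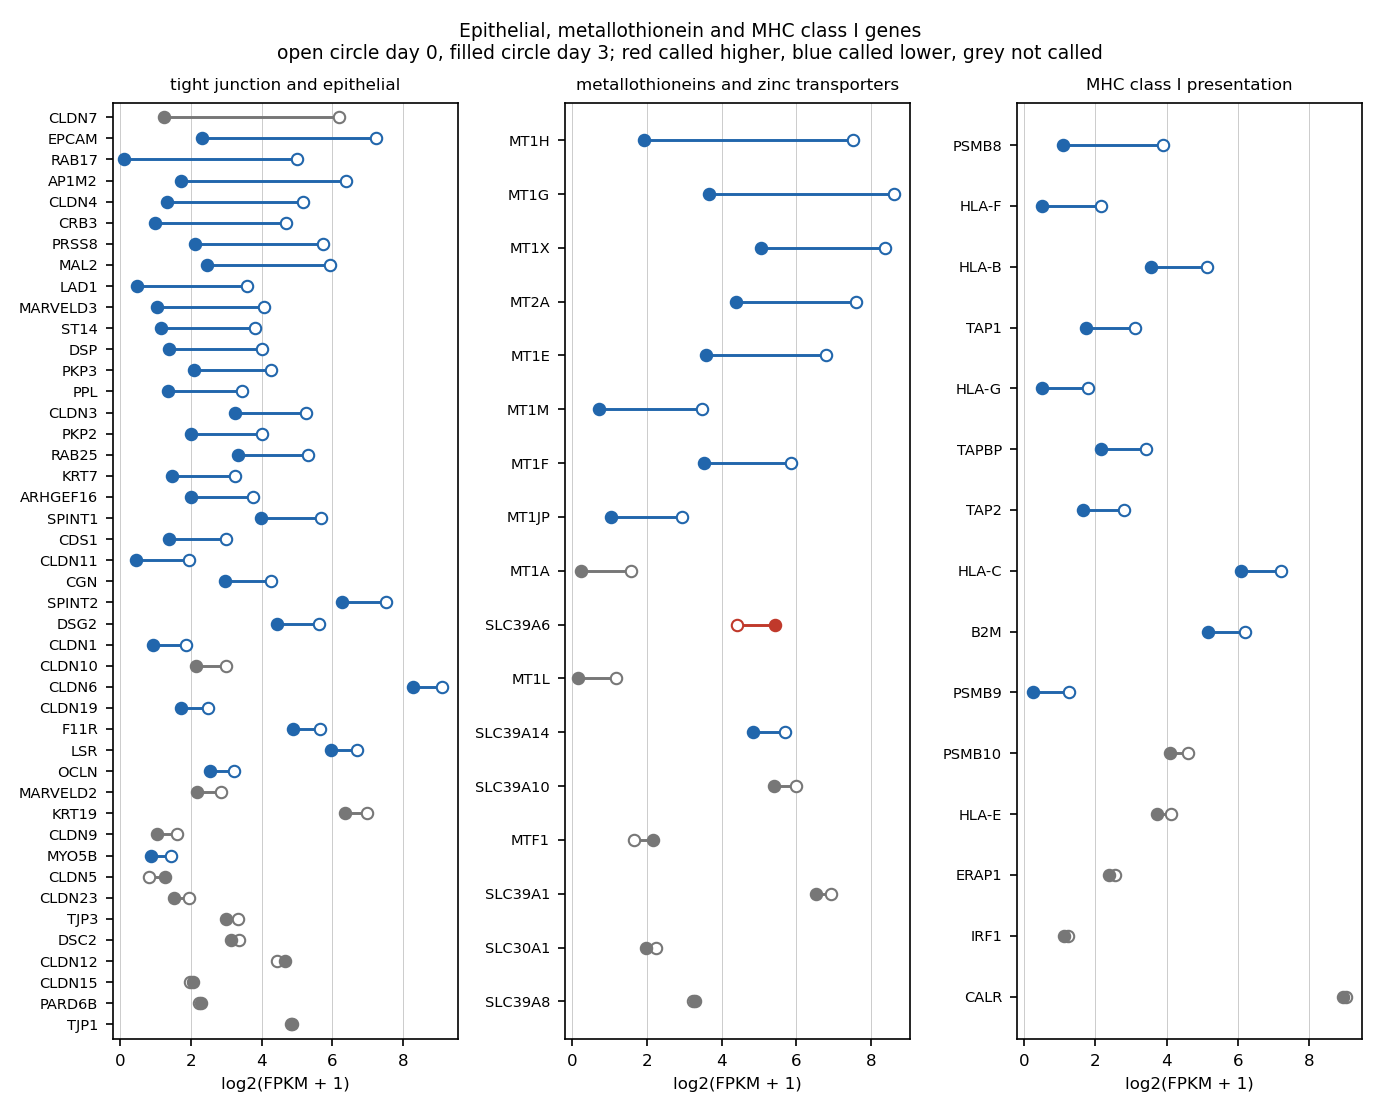
For each gene an open circle marks day 0 and a filled circle day 3 on a log2(FPKM + 1) axis, blue where called lower, red where called higher, grey where not called; a few genes of the lists are not drawn. No epithelial gene (of 45) and no MHC class I gene (of 17) was called higher, and the only red line is the zinc transporter SLC39A6.

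Of 18 transcription and splicing factors of the epithelial to mesenchymal transition, 5 rose and 8 fell. Of these, 6 reached 1 on day 0 alone and 4 on day 3 alone, which sets their direction. Of the 8 at 1 or more on both days, 2 rose and 3 fell, median -0.18. GRHL2, OVOL2 and RBM47 are among the 6, and SNAI2 and ZEB1 among the 4. GRHL2 and OVOL2, activators and guardians of epithelial genes, fell from 6.41 to 0.0884 and from 5.69 to 0.203. RBM47 and ESRP2, epithelial RNA-binding proteins, fell from 15.8 to 0.315 and from 16.4 to 2.89. SNAI2 and ZEB1, repressors of E-cadherin, rose from 0.628 to 4.18 and from 0.134 to 1.85. SNAI1 was at 6.82 and 3.97 and not called. TCF4 and TCF12, E proteins, rose from 13.2 to 27.2 and from 24.6 to 40.5.

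Of 17 cadherins and catenins, 11 rose and 3 fell, the 3 being CDH3, CDH1 and JUP (from 44.6 to 27.4). N-cadherin (CDH2), of neural tissue, rose from 15.8 to 101 (log2 ratio 2.67 ± 0.41) as E-cadherin (CDH1) fell from 75.6 to 3.95. CDH11 and CDH6, of neural crest, rose from 1.70 to 11.4 and from 0.884 to 3.32, and stood at 21.0 and 41.9 on day 5. CDH23 rose from 1.05 to 15.8 and CDH9 from 1.41 to 6.65. Alpha-catenin (CTNNA1, 132 and 101) and p120-catenin (CTNND1, 49.5 and 50.4) were not called, and neither was beta-catenin (CTNNB1, 123 and 122). Among protocadherins outside the clusters PCDH8 rose from 0.352 to 12.3 and PCDH10 fell from 3.43 to 0.378.

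Matrix genes were balanced in number and differed by type. Of 24 collagen genes, 8 rose and 8 fell, and of the 21 at 1 or more on both days 8 rose and 6 fell. COL2A1, of cartilage and notochord, rose from 4.89 to 34.6, and the basement membrane chains COL4A5 and COL4A6 from 7.33 to 13.9 and from 4.88 to 12.9. COL6A1 and COL6A2 fell from 54.7 to 14.4 and from 53.9 to 11, and COL1A1 from 34.2 to 7.74. Of 38 laminins and matrix glycoproteins, 13 rose and 8 fell. LAMA5, of epithelial basement membranes, fell from 28.4 to 11.2, while LAMA1 and LAMB1, of embryonic ones, rose from 9.42 to 22.4 and from 16.2 to 27.6. Tenascin C (TNC), found along neural crest paths, rose from 1.12 to 6.98, the neural proteoglycan NCAN from 1.23 to 11.2 and SPON1 from 0.684 to 4.22. Fibronectin (FN1) was at 13 and 13.4 and not called. Of 14 integrins 3 rose and 5 fell, and of the 9 at 1 or more on both days 1 rose and 2 fell. ITGA5, part of the fibronectin receptor, rose from 4.92 to 16, while ITGB5 fell from 56.4 to 16.2 and ITGA3, a laminin receptor subunit, from 8.12 to 0.985. GPC4, a heparan sulfate proteoglycan, fell from 111 to 33.5, and SDC3 rose from 8.36 to 37.6. Of 35 metalloproteinases and inhibitors, 5 rose and 9 fell, with MMP14 from 26.9 to 8.41 and MMP2, which MMP14 activates, from 16.9 to 28.8. Of the 26 at 1 or more on both days, 3 rose and 6 fell.

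Of 23 actin and contractile genes, 4 rose and 5 fell. Smooth muscle actin (ACTA2) rose from 4.41 to 34.1 and stood at 266 on day 5, and the non-muscle myosin MYH9 fell from 87.4 to 46.4. Of 23 tubulins and intermediate filaments, 3 rose and 5 fell. TUBA4A fell from 30.7 to 2.03 and TUBA1A, the tubulin of young neurons, rose from 506 to 923. Vimentin (VIM) was at 317 and 501 and not called. Of 17 annexins and S100 proteins 7 fell and none rose. S100A11 fell from 203 to 14.4 (log2 ratio -3.82 ± 0.30), its relative S100A10 from 196 to 23.0 and ANXA3 from 34.6 to 3.41.

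Metallothioneins, small cysteine-rich proteins that bind zinc and copper and are induced by metals through the factor MTF1, fell as a cluster. Together with zinc transporters and MTF1, 17 genes were at an FPKM of at least 1, of which 9 fell and 1 rose, median -1.35. MT1X fell from 327 to 32.1 (log2 ratio -3.35 ± 0.22), MT2A from 192 to 19.7 and MT1E from 109.5 to 11.1. MT1F fell from 56.8 to 10.6 and MT1M from 10.2 to 0.646. MTF1 itself was at 2.16 and 3.52 and not called. SLC39A14, a zinc importer, fell from 50.9 to 27.6, and SLC39A6, another, rose from 20.2 to 42.4. MT1F, MT1G, MT1H and MT1X are consecutive among the expressed genes of chromosome 16 (56691855 to 56718108, hg19). Metallothionein genes are near-identical in sequence, so the division of reads between them is uncertain.

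Of the metallothionein genes named here, only MT1H, MT1X and MT2A were matched to a promoter, and these 3 are printed. The others were not searched. The promoters are marked for metal response elements, the motif that MTF1 binds. The motifs searched were TGCGCNC and TGCACNC on both strands, in capitals below, and overlapping matches were counted apart.
MT1H (chr16:56669564-56669863, plus strand): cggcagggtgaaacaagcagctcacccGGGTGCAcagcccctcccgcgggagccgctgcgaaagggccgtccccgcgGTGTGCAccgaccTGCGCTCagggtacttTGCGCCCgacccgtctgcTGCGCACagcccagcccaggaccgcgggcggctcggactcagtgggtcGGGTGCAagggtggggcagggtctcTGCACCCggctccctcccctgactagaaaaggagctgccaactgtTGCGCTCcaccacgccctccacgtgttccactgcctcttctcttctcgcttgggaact
MT1X (chr16:56682220-56682519, plus strand): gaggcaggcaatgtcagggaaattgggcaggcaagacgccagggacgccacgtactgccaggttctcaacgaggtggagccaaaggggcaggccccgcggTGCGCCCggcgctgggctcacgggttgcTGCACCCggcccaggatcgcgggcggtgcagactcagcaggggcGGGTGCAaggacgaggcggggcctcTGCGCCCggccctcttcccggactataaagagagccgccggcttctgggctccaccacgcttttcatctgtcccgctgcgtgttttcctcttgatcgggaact
MT2A (chr16:56608334-56608633, plus strand): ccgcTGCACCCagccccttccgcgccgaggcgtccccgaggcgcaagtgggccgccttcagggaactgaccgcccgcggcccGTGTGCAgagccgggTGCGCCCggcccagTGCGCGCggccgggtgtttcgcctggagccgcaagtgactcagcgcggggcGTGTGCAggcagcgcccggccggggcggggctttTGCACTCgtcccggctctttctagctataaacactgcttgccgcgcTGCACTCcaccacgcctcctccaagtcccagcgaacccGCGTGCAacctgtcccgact
There were 8 matches for MT1H, 4 for MT1X and 8 for MT2A, and 119 of the 10630 genes with a promoter had 4 or more. At least 1 match was found in 38.2% of promoters of genes that rose, in 35.1% of those of genes that fell, in 37.5% of all promoters of the genes compared and in 29.6% of all promoters of the table. The hypoxia motif ACGTG was found in 20.2%, 22.7%, 25.2% and 21.4% of the same sets in the same order. The octamer ATGCAAAT, which POU factors bind, was found in 1.39%, 1.82%, 1.36% and 1.77%.

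Of 28 hypoxia response genes 5 fell, ADM (from 138 to 1.21) among them, and 1 rose. STC1 fell from 38.8 to 10.4 and VEGFA from 20.7 to 11.8, while SLC2A1 (147 and 109), LDHA (869.5 and 576) and BNIP3 (203 and 126) were not called. Of 35 glycolytic genes 4 fell (11.4%) and 1 rose (2.86%), beside 11.5% and 9.25% of all tested compared genes. HK1 fell from 89.8 to 22.5 and PFKP from 72.2 to 30.4, whereas PGK1 (457 and 281) and GAPDH (4604 and 4112) were not called. Of 35 genes of cholesterol and fatty acid synthesis 4 fell (11.4%) and 1 rose (2.86%). ACSS2, which makes acetyl-CoA from acetate, fell from 15.2 to 4.30. Of 28 genes of serine and one-carbon metabolism 5 fell and 2 rose. PHGDH, the first enzyme of serine synthesis, fell from 349.7 to 182, SHMT2 from 151 to 74.7 and ASNS, asparagine synthetase, from 110.3 to 37.2. Thymidylate synthase (TYMS) rose from 36.7 to 93.9 and MAT2A from 71.4 to 141. Of 28 amino acid transporters 8 fell and 3 rose. SLC7A5 and SLC3A2, the light and heavy chain of the large neutral amino acid transporter, fell from 90.3 to 28.5 and from 187 to 90.9, and SLC7A3, an arginine and lysine transporter, from 87.8 to 27.5.

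Most genes of antigen presentation by MHC class I were called lower in RNA. Of 17 genes 11 fell and none rose, median -1.12, beside 11.5% of all tested compared genes called lower. Of these, 3 reached 1 on day 0 alone, which sets their direction. Of the 14 at 1 or more on both days, 8 fell, median -1.07. The heavy chain genes HLA-B and HLA-C fell from 33.8 to 10.9 and from 145 to 66.4, and B2M, their common light chain, from 72.2 to 35.1. The peptide transporter genes TAP1 and TAP2 fell from 7.63 to 2.32 and from 5.94 to 2.18, and PSMB8, an immunoproteasome subunit, from 13.9 to 1.12 (log2 ratio -3.62 ± 0.86). HLA-E (16.4 and 12.4) was not called. HLA genes are highly alike and lie on haplotype contigs of the build, so their values are uncertain.

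Of 45 genes of DNA replication, 9 rose and none fell, median 0.44. The ribonucleotide reductase subunits RRM1 and RRM2 rose from 49.8 to 99.3 and from 35.1 to 58.5, POLD3 from 13.9 to 30.4 and GINS2 from 49.8 to 89.1. PCNA (186 and 229.6) and MCM2 (63.8 and 81.2) were not called. Of 37 cyclins and cyclin-dependent kinases 4 rose (10.8%) and 4 fell (10.8%), close to the 9.25% and 11.5% of all tested compared genes. CCND2 rose from 28.7 to 49.9 with CCND1, and CDK6 fell from 2.77 to 0.715, while CCNB1 (135 and 126) and CDK1 (69.1 and 59.9) were not called. Of 36 kinesins 2 rose (5.56%) and 1 fell (2.78%). Of 24 inhibitors of cyclin-dependent kinases and p53 targets 5 rose (20.8%) and 3 fell (12.5%). CDKN1A (21.1 and 33.6), the best known p53 target, was not called. Of 27 BCL2 family and caspase genes 3 fell (11.1%) and 1 rose (3.7%), and BAX was at 276 and 278 (not called). Of 79 cytosolic ribosomal protein genes 1 fell, RPL22L1 (from 41.4 to 16), and none rose.

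Chromatin regulators changed in a few subunits. Of 34 Polycomb subunits 6 rose (17.6%) and 4 fell (11.8%), beside 9.25% and 11.5% of all tested compared genes. PHC1 fell from 184 to 21.2 (log2 ratio -3.12 ± 0.57) while its relative PHC2 rose from 9.28 to 55.3 (log2 ratio 2.58 ± 0.42). JARID2 and AEBP2, accessory subunits of the PRC2 complex, fell from 67.8 to 26.2 and from 14.6 to 6.50, and its catalytic subunit EZH2 rose from 29.3 to 55.5. BMI1 rose from 2.72 to 8.37 and CBX8 from 1.02 to 4.48, and CBX7, the CBX subunit known from embryonic stem cells, fell from 3.33 to 1.17. Of 25 BAF subunits 3 rose (12%) and 1 fell (4%). SMARCD3 and BCL7A rose from 2.77 to 9.17 and from 5.69 to 13.7, and BCL11A fell from 7.24 to 0.984. Of 16 genes that write or erase DNA methylation 3 rose (18.75%) and 2 fell (12.5%). DNMT3B, the de novo methyltransferase of pluripotent cells, fell from 315 to 102, while DNMT3A (34.2 and 27.6) and DNMT1 (49.1 and 57.4) were not called. UHRF1, the maintenance partner of DNMT1, rose from 24.3 to 51.6, TET3 from 4.15 to 7.37 and TET2 from 0.740 to 1.70.

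Further lists complete the account. Of 39 pluripotency genes at an FPKM of at least 1, 25 fell and none rose, median -1.37, and of the 27 at 1 or more on both days 15 fell. They included POU5F1, NANOG, POLR3G, a subunit of RNA polymerase III (from 77.6 to 8.25), the kinase gene PIM2, the chromatin factor gene UTF1 (from 41.3 to 7.86) and the surface antigen gene THY1 (from 158 to 31.5). Of 24 neural crest specifiers, 10 rose and 4 fell, and of the 16 at 1 or more on both days 3 rose and 3 fell. NR2F1 rose from 0.234 to 3.89 and CDH7 from 0.496 to 1.66, while ETS1 fell from 7.27 to 1.11 and MYB from 3.04 to 1.25. Of 12 genes of neural crest derivatives 6 rose and none fell, and of the 8 at 1 or more on both days 4 rose. PMP22, a myelin gene, rose from 0.947 to 5.48 and PMEL, a pigment cell gene, from 56.4 to 137. Of 15 placode factors 6 rose and 5 fell, and of the 8 at 1 or more on both days none rose and 4 fell, with EYA2 from 0.600 to 2.74 and SIX4 from 5.74 to 2.90. Of 18 KLF and SP factors 2 rose (11.1%), SP5 and SP8, and 1 fell (5.56%), KLF4 from 1.35 to 0.446. Of all tested compared genes 9.25% rose and 11.5% fell. Of 36 ion channel genes 7 rose and 8 fell, with CACNA1G from 1.13 to 3.65 and KCNK1 from 6.84 to 0.541. Of the 28 at 1 or more on both days, 3 rose and 5 fell.

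**Figure D5:**
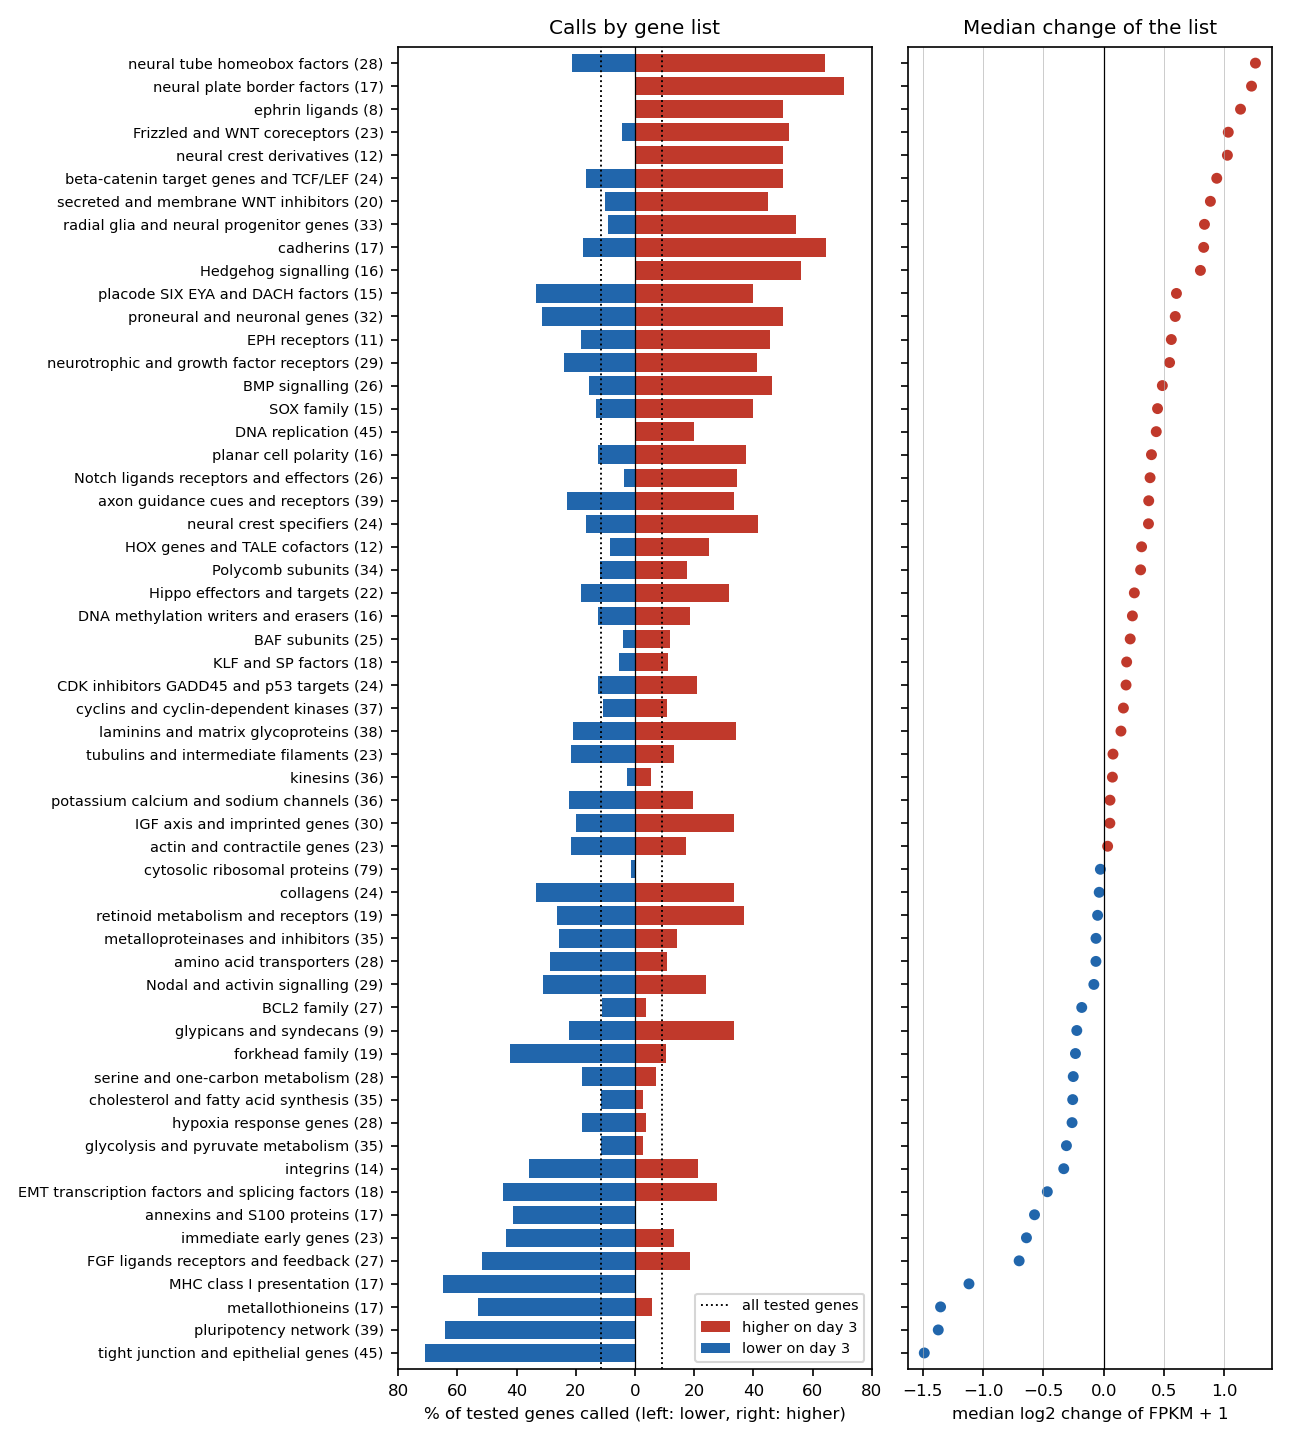
Left, percentage of the tested genes of each list called lower (blue, leftward) or higher (red, rightward) on day 3. Dotted lines at 11.5% and 9.25% are for all tested compared genes. The number of genes at an FPKM of at least 1 follows each name, and lists of at least 8 are shown. Right, the list's median log2 change of FPKM plus 1; tight junction and epithelial genes (-1.49) lie lowest and neural tube homeobox factors (1.26) highest.

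Some genes passed from below an FPKM of 1 to at least 5 or the reverse. There were 167 that went up in this way, 70 of them called, and 139 that went down, 97 of them called. Of the 70, 59 were protein-coding, and 50 were at 5 or more on day 5 as well while 5 were below 1. WNT ligands were among them: WNT4 rose from 0.862 to 13.2, WNT10B from 0.590 to 6.37 and WNT8A, of the early embryo, from 0.0770 to 5.96, to 0.533 on day 5. NR2F2, a nuclear receptor of neural crest enhancers, rose from 0.161 to 5.22 and was at 39.0 on day 5. GAD1, which makes the transmitter GABA, rose from 0.649 to 7.73, and GPR56, an adhesion receptor of neural progenitors, from 0.571 to 11.3. The polysialyltransferase ST8SIA2 rose from 0.451 to 6.42, and LGI1 from 0.458 to 6.06. Of the 97 called downward, 90 were protein-coding, 80 were below 1 on day 5 too and 4 were at 5 or more, FOS and FOXD3 among these. LRAT, which stores retinol as esters, fell from 11.4 to 0.717, caveolin 1 (CAV1) from 6.42 to 0.971, osteopontin (SPP1) from 11.1 to 0.548 and the prion protein gene PRNP from 10.5 to 0.755. The calcium-binding CALB1 fell from 5.64 to 0.665.

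Called genes lay next to each other at 18 places where 4 or more consecutive expressed genes moved one way, 13 downward and 5 upward. No test was made of such runs, and 3 of them, on chromosomes 5 and 17 and a contig of chromosome 6, held only 3 distinct loci. Downward runs included ATHL1, IFITM2, IFITM1 and IFITM3 on chromosome 11 (289138 to 320914, hg19, as for all runs). The IFITM genes, antiviral membrane proteins, fell from 546 to 46.8 for IFITM1, from 306 to 52.0 for IFITM2 and from 481 to 104 for IFITM3. BACE2, MX2, MX1 and TMPRSS2 fell together on chromosome 21 (42539728 to 42880085), MX1 and MX2 being interferon-induced GTPases at 1.84 and 3.38 on day 0. TAP2, PSMB8, TAP1 and PSMB9 formed a run on a haplotype contig of chromosome 6. SWAP70, SBF2, ADM and AMPD3 fell on chromosome 11 (9685628 to 10529126), and MLPH, RAB17, LRRFIP1 and RAMP1 on chromosome 2 (238395878 to 238820755), RAMP1 being listed at 0 on day 3. RAMP1 encodes an accessory protein of the receptor for calcitonin gene-related peptide. PRKCI, SKIL, CLDN11 and RPL22L1 fell on chromosome 3 (169940220 to 170588045), and ARHGEF3, IL17RD, HESX1 and APPL1 on the same chromosome (56761446 to 57326710). On chromosome 8 STC1, NEFM, NEFL and DOCK5 fell, and on X KLHL4, PCDH11X, NAP1L3 and DIAPH2, spread over 86772715 to 96855597. On chromosome 10 there were 2 runs of 5, PRKCQ, LOC439949, LOC100507127, SFMBT2 and ITIH5, and CPXM2, CHST15, OAT, NKX1-2 and LHPP. FCHSD1, RELL2, ARAP3 and PCDH1 fell on chromosome 5. FCHSD1 shares its locus with RELL2 in the table, and PSMB8 with TAP1.

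The upward runs included IRX3, CRNDE, IRX5 and MMP2 on chromosome 16 (54317212 to 55540586). CRNDE, a noncoding RNA gene beside IRX5, rose from 6.81 to 36.9. On chromosome 4 (86936276 to 88141674) MAPK10, the neuronal JNK kinase, rose from 1.42 to 27.6, with PTPN13 (from 17.2 to 49.3), AFF1 (from 11.1 to 23.2) and KLHL8 (from 1.92 to 4.06). On chromosome 11 NRGN, C11orf61, ROBO3 and CCDC15 rose, and on chromosome 14 GALC, KCNK10, SPATA7 and PTPN21. KCNK10, a potassium channel gene, rose from 0.144 to 6.37. The genes USP32P2, CCDC144B, FOXO3B and ZNF286B on chromosome 17 include pseudogenes and shared loci, and their values are uncertain. Over whole chromosomes the share of tested genes called ranged from 16.2% on 22 to 27.7% on 18, leaving aside Y.

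Small RNA genes are listed with extreme values and need separate reading. Libraries were made from polyadenylated RNA, so a value at such a gene need not follow the mature small RNA, and many share a locus with a host gene. Of 173 microRNA precursor genes at an FPKM of at least 1, 97 were tested and 3 rose, with none lower. Of the 173, 95 were listed at 0 on 1 of the 2 days, 62 of them on day 0. Of 122 SNORD genes 9 rose and 4 fell, and 42 were listed at 0 on 1 day. MIR4461, MIR1244-1 and MIR1244-3 had the 3 highest FPKM values on both days and held 27% of the FPKM sum on day 0 and 25.9% on day 3, and none of them was called. The 10 among the 30 largest rises, all at 0 on day 0, were SNORD37 (902 on day 3), SNORD36B (609), MIR302A, SNORD59A (170.0), SNORD33 (116), MIR2964A (114), SNORD83A (67.6), SNORD72 (40.8), MIR219-1 (24.9) and SNORD46 (19.7). All but MIR219-1 share a locus with another gene. No fold is given where a day is listed at 0.

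The miR-302 family is the abundant microRNA family of human embryonic stem cells, and its precursors lie together within LARP7 on chromosome 4. Mature sequences are printed to show that the 4 members listed carry an identical seed (bases 2 to 8, in capitals), the part that pairs with target messages. Sequences are from RefSeq (GRCh38.p14).
hsa-miR-302a-3p: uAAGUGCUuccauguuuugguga
hsa-miR-302b-3p: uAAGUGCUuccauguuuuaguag
hsa-miR-302c-3p: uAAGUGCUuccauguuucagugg
hsa-miR-302d-3p: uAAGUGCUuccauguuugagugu
MIR302A was listed at 0 on day 0 and at 348 on day 3 and was called higher (q 0.0232 in the authors' deposited table). MIR302D was listed at 0 and at 259 and was not tested. MIR302B was at 339 and 181 and MIR302C at 1713 and 2034, neither called. The 4 precursors did not move alike in this table, and all 4 are given the locus of LARP7 (chromosome 4, 113460489 to 113578742, hg19), itself at 244 and 194 and not called.

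A second seed was shared by precursors that lie on different chromosomes, MIR25 on 7, MIR363 and MIR92A2 on X and MIR92B on 1. They were picked by name and are shown because each was listed higher on day 3 while none was called. The choice was not a search over all precursors with this seed, so it does not show how those moved as a set.
hsa-miR-25-3p: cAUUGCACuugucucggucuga
hsa-miR-363-3p: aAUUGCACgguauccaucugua
hsa-miR-92a-3p: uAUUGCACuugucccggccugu
hsa-miR-92b-3p: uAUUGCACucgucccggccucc
MIR25 was at 223 and 493 and MIR363 at 81.3 and 545. MIR92A2 and MIR92B were listed at 0 on day 0 and at 141 and 11.5 on day 3. By the authors' deposited table, q was 0.402 for MIR25, 0.505 for MIR363 and 0.142 for MIR92A2, and MIR92B was not tested.

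The 10 largest uncalled changes among genes reaching an FPKM of 5 were all at microRNA or SNORD genes. Some large differences at other genes were not called either. H3F3A, a gene of the histone H3.3, was at 688 and 2.86 (q 0.68 in the authors' deposited table). PHOX2A, of autonomic neurons, was at 0.304 and 13.2 (q 0.478 in the authors' deposited table), and GDF3, a Nodal-related ligand, at 7.21 and 0.0274. EDNRB, a receptor of neural crest, was at 3.55 and 0.0340. In the authors' deposited table the test statistic was -5.78 for GDF3 and -5.68 for EDNRB beside q values of 0.282 and 0.479. These 4 genes were chosen after their values were seen.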

How the data were processed

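Poly-adenylated RNA of 4 libraries (2 per group) underlies the comparison. Per the submitters' processing notes, TopHat2 2.0.10, TopHat, Cuffdiff 2.1.1 and build hg19 were used. No annotation or strand setting is named there. Per the file headers, the deposited table holds 1 FPKM per gene and group, made by the authors from both libraries, and the test statistic (here a score), p-value and q-value of each comparison. Genes are identified by the table's identifier column. A gene was called where its status was OK and its q below 0.05. Locus starts were taken as counted from 0 (1784 loci matched RefSeq lengths as end minus start, 238 as end minus start plus 1) and are printed from 1.

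Changes are on the log2 scale after adding a pseudocount of 1 to each FPKM, so those of low genes are understated. The compared genes and 63 gene lists were chosen with earlier results of these data known. Of 14152 genes, 132 were not tested, 3572 share a locus and 143 lie on haplotype contigs. Named genes were drawn, not all with values, from the 30 largest rises and 30 largest falls among called genes reaching 5 FPKM, up to 4 of each list by size of change, FOXB1, the 10 most abundant, the 10 largest uncalled changes, genes in runs of 4 or more neighbours, and further list members where a count needed them. Genes passing from below 1 to 5 or the reverse, and list members beyond these, were picked with values seen. A few genes are not reported here. No model was fitted. The adjustment used for an alternative was tested on simulated data. Python 3 with pandas and matplotlib was used.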

Additional observations from a re-analysis of the deposited data

How the results depend on the processing

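The median change of the 14152 genes stayed between 0.03 and 0.05 under pseudocounts of 0.1 and 5, FPKM limits of 5 in either group or 1 in both, and rescaling without the 3 most abundant genes. At a deposited q below 0.01, 946 genes were called higher and 1297 lower in place of 1454 and 1884. Taking p from the normal distribution of the statistic gave 940 higher and 1469 lower; 35 called genes without a usable test statistic, listed at 0 on 1 day, drop out by construction. Adjustment within this comparison gave 1457 and 1890. Of the compared genes, 901 higher and 1042 lower calls reached 5 FPKM on either day, and 675 and 1007 at least doubled or halved in FPKM plus 1; both limits leave fewer genes by construction. Without shared loci, haplotype contigs and merged symbols the counts were 1091 and 1390. Pseudocount, centring and rescaling do not enter a call, so they bear on sizes alone. With lists held to genes at 1 or more on both days, a limit chosen after seeing the data, 6 of 65 list medians changed sign: Nodal and activin (-0.08 to 0.13), the IGF axis and imprinted genes (0.05 to -0.0091), collagens (-0.04 to 0.28), placode factors (0.60 to -0.70), protocadherins (-0.59 to 0.17) and endothelium and blood (0.33 to -0.86).

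No paired analysis was possible because the table has 1 value per group and none per library. Leaving out a replicate could not be run for the same reason. Depth is unknown, so no counting interval is given.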

Other observations

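Several groups were looked at only after the values had been seen. Of 463 zinc finger genes with ZNF symbols at an FPKM of at least 1, 44 rose (9.50%, beside 9.25% of all tested compared genes) and 12 fell (2.59%, beside 11.5%). A change above 0 was seen in 76.5% of them and in 53.4% of all compared genes, with medians of 0.22 and 0.04. This family includes many KRAB repressors of transposable elements, and 217 of the 463 lie on chromosome 19. Of 44 canonical histone genes 3 fell and none rose (6.82% called, beside 20.8% of all tested compared genes). Their median was -0.53, with 9.09% above 0. These messages mostly lack a poly-A tail, so their level in poly-adenylated RNA need not follow their level in the cell. Of 21 interleukin and interleukin receptor genes 10 fell and 1 rose (52.4% called). Of 66 RAB GTPase genes 14 fell and 4 rose (27.3% called). Of 77 mitochondrial ribosomal protein genes 5 fell and none rose, with a median of -0.20, and of 44 NADH dehydrogenase subunits 1 fell, with a median of -0.24. The shares called, 6.49% and 2.27%, were below the 20.8% of all tested compared genes. Of 13 intraflagellar transport genes, which build cilia, 1 rose and none fell (7.69% called), with a median of 0.44.

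Of 35 interferon-induced genes and receptors 15 fell and 2 rose, with a median of -0.66. APOBEC3B, a cytidine deaminase, fell from 27.1 to 1.37, IFI30 from 30.4 to 7.29 and BST2 from 49.9 to 23.2. UBE2L6 rose from 46.5 to 83.3 and IFIT5 from 1.28 to 2.48. ISG15 (53.4 and 42.3), STAT2 (7.05 and 6.99) and the receptor gene IFNAR1 (3.03 and 3.67) were not called. Of 38 genes of the amino acid response governed by ATF4, 16 fell and none rose, with a median of -0.60. CHAC1, which degrades glutathione, fell from 28.4 to 5.14, the mitochondrial PCK2 from 50.5 to 12.9 and CEBPB from 18.6 to 3.84. ATF4 (483 and 322) and DDIT3 (4.45 and 4.21) were not called. PHGDH, SHMT2 and ASNS stand in this list and in that of serine and one-carbon metabolism.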
